A study of Mus musculus with 6 samples.

Results

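The TNF superfamily pairs receptors on one cell with trimeric ligands on another. From its receptors, its ligands and their adaptors, 10 genes were followed here across the arrays of mouse regulatory T cells (Tregs). Tregs are the Foxp3-dependent CD4 T cells that hold immune responses in check. The genes were Tnfrsf9, Tnfrsf4, Tnfrsf18, Cd27, Tnfrsf1a and Tnfrsf1b among the receptors, Tnfsf8, Tnfsf11 and Cd40lg among the ligands, and the adaptor Traf1. They were listed by name, and all 15 probe sets that the platform annotates to them alone were taken, of 45101 on the array, which represents 18193 genes. The list was drawn up with results of these same comparisons known, among them the higher signals of Tnfrsf9, Tnfrsf4, Tnfrsf18 and Tnfsf8 with the agonist. The differences between groups given for the 10 genes are therefore descriptions, with no p-value attached.

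The series holds 6 arrays in 3 groups of 2. KO vehicle cells came from A2AR-/-FoxP3GFP mice, which lack A2AR, an adenosine receptor, and were cultured for 18 h with the DMSO vehicle. WT ATL1222 cells came from A2AR+/+FoxP3GFP mice and were cultured for 18 h with 10 nM of ATL1222, an agonist that the labels call selective for the receptor, and WT vehicle cells came from the same wild-type stock and received DMSO for 18 h. All mice were C57Bl/6, aged 8 to 11 weeks, and all carried the FoxP3GFP reporter, by which CD4+CD25+FoxP3+ cells were sorted from spleen and lymph nodes. The labels call the WT vehicle cells unactivated and name no T cell stimulus in the culture medium. They call the replicates biological but do not say whether the receptor was missing from T cells alone, whether cells of several animals were pooled, or whether replicates came from separate animals, so the errors given measure only the spread between these arrays.

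Receptors of this family recruit TRAF adaptors or death-domain adaptors to their cytoplasmic tails and signal to NF-kB, MAP kinases or caspases. Tregs are known for high surface levels of GITR (Tnfrsf18), OX40 (Tnfrsf4) and TNFR2 (Tnfrsf1b), and 4-1BB (Tnfrsf9) appears on T cells after activation. A2AR raises intracellular cAMP, which acts through protein kinase A and CREB.

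Values are array signals on a linear scale that the authors scaled to a common trimmed mean of 250. Differences are on the log2(signal + 16) scale with the standard error (SE) of the fit, and understate the change of dim genes. A gene was tested if the mean of its brightest probe set lay above the lowest 40% of genes, about a signal of 71.2, and 9 of the 10 genes were. A gene is called where limma's Benjamini-Hochberg adjusted p over all 10916 genes tested fell below 0.05. Correlations between arrays were about as high within groups (Pearson r from 0.958 to 0.967) as between them (0.953 to 0.971). The spiked-in poly-A controls Lys, Phe, Thr and Dap were brighter on replicate 1 than on replicate 2 in every group, by 1.06 to 2.19 times. Differences from WT vehicle within each replicate number are therefore given too for the 9 genes tested, on the brightest probe set. Of 7 Treg markers, Ikzf2 reached 8431, Nrp1 8299, Ctla4 6410, Izumo1r 1440, Il2ra 613 and Entpd1 267 at their highest. The 1 probe set of Foxp3, the gene of the sort, stayed below the limit for dim genes at 7.18 to 53.5. In bulk RNA like this, fewer cells of a type and less RNA per cell cannot be told apart.

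With ATL1222 the genes of 4-1BB, OX40, GITR and the CD30 ligand were brighter than with vehicle. In cells without A2AR these genes had lower means, as did all 9 genes tested. Of the 9 genes tested, 1 was called higher in WT ATL1222 than in WT vehicle (Tnfrsf9), against 0.202% of all genes tested, and 0 were called lower, against 0.00916%. With the replicate number as a block 4 were called higher (Tnfrsf9, Tnfrsf4, Tnfrsf18 and Tnfsf8), against 0.678% of all genes, and 0 lower, against 0.0458%. In KO vehicle against WT vehicle 0 of the 9 were called lower with or without the block, against 0.0275% and 0.0824% of all genes tested, although all 9 had lower means. In WT ATL1222 against KO vehicle 4 were called higher (Tnfrsf9, Tnfrsf4, Tnfrsf18 and Tnfsf8), against 0.879% of all genes, and 5 with the block, which added Traf1, against 1.88%. Called lower there were 0 in both fits, against 0.119% and 0.54% of all genes. Since these comparisons took part in the choice of the genes, nothing is read from the counts. The comparisons against WT vehicle share those 2 arrays, and the comparison of WT ATL1222 with KO vehicle adds no samples of its own.

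**Figure D1:**
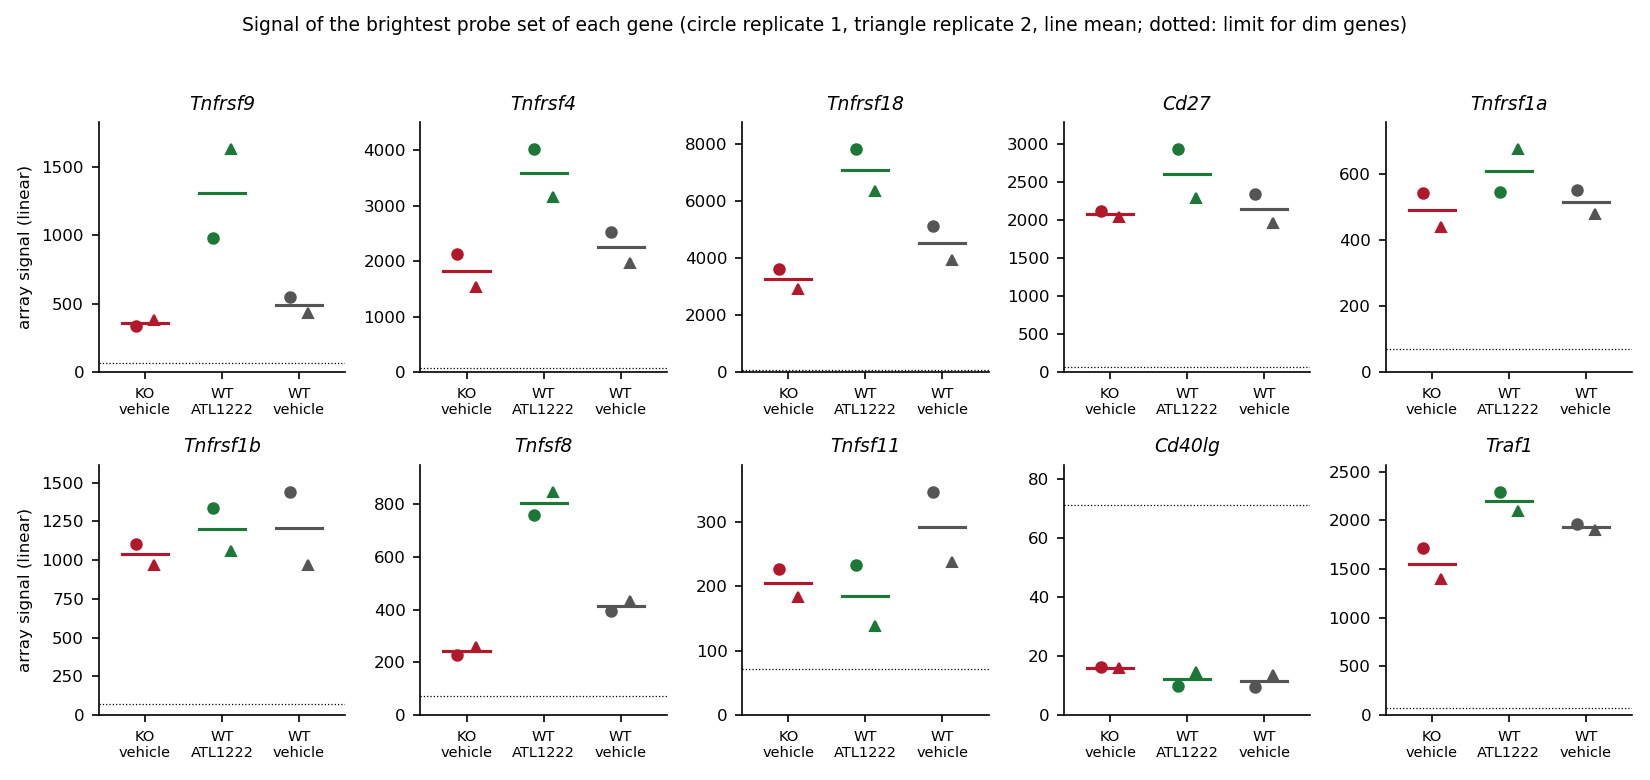
Array signal (linear scale, starting at 0) of the brightest probe set of each of the 10 genes, with KO vehicle, WT ATL1222 and WT vehicle from left to right, circles for replicate 1, triangles for replicate 2, lines for group means and a dotted line at the limit for dim genes of 71.2. Both WT ATL1222 arrays lie above both WT vehicle arrays for Tnfrsf9, Tnfrsf4, Tnfrsf18, Tnfsf8 and Traf1 and below them for Tnfsf11, and Cd40lg lies below the limit on all 6 arrays.

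Tnfrsf9 (chromosome 4) encodes 4-1BB, a co-stimulatory receptor that signals through TRAF1 and TRAF2. Its annotation has a pair of start sites, and the 250 bases before each (RefSeq, GRCm38.p6) are shown because 2 of the motifs searched lie before the downstream one. Capitals mark matches, GGGATTTCCC to an NF-kB motif of GGGA and CC with any 4 bases between them, which begins 42 bases before the start, and TGAGTCA to the AP-1 motif, which begins 15 bases before it.
Tnfrsf9 upstream start, chr4:150919905-150920154, plus strand: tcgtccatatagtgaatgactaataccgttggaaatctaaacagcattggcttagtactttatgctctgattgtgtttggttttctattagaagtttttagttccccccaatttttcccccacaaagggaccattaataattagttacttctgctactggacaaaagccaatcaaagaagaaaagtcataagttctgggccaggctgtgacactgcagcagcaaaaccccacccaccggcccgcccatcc
Tnfrsf9 downstream start, chr4:150927749-150927998, plus strand: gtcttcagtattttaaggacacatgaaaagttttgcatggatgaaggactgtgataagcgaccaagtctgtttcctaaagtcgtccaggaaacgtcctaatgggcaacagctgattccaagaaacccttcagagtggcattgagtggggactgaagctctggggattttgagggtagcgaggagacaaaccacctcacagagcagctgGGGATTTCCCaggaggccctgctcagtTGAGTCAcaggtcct

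On its brightest probe set (1460469_at) Tnfrsf9 had signals of 339.7 and 380.1 in KO vehicle and 978 and 1629.9 in WT ATL1222, against 551 and 435 in WT vehicle. No group overlapped another, and the order was KO vehicle lowest, WT vehicle next and WT ATL1222 highest. The mean in WT ATL1222 was 1304 ± 461 (SD, n = 2), against 493 ± 82.2 in WT vehicle, a difference of 1.34 ± 0.23 SE on the log2 scale or 2.53-fold. Within replicate 1 the log2 difference was 0.81 and within replicate 2 it was 1.87. KO vehicle lay at 359.9 ± 28.6, a log2 difference of -0.43 ± 0.23 from WT vehicle, with -0.67 in replicate 1 and -0.19 in replicate 2. The call with ATL1222 against WT vehicle was lost without WT ATL1222 replicate 2 (log2 0.97) and without WT vehicle replicate 2 (log2 1.17), and in 4 of the other alternatives.

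The next brightest probe set of Tnfrsf9 (1428034_a_at) gave wider differences. It had 78.7 and 96.6 in KO vehicle and 1035 and 732 in WT ATL1222, against 299 and 267 in WT vehicle. Again the groups did not overlap and stood in the same order, but here replicate 1 was the brighter WT ATL1222 array, where on 1460469_at it was replicate 2. The log2 difference was 1.57 ± 0.25 in WT ATL1222 (2.97-fold) and -1.53 ± 0.25 in KO vehicle (2.89-fold lower), and WT ATL1222 stood 8.59-fold above KO vehicle (log2 3.10 ± 0.25). With every probe set tested separately it was called only between WT ATL1222 and KO vehicle, where 0.307% of all probe sets were called higher and 0.0185% lower. No probe set of the listed genes was called between WT ATL1222 and WT vehicle there, where 0.0333% of all were called higher. The KO vehicle signals sat just above the limit for dim genes. The last probe set, 1421481_at, was dim, with 21.3 to 85 over the 6 arrays, and its groups do not bear an order.

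**Figure D2:**
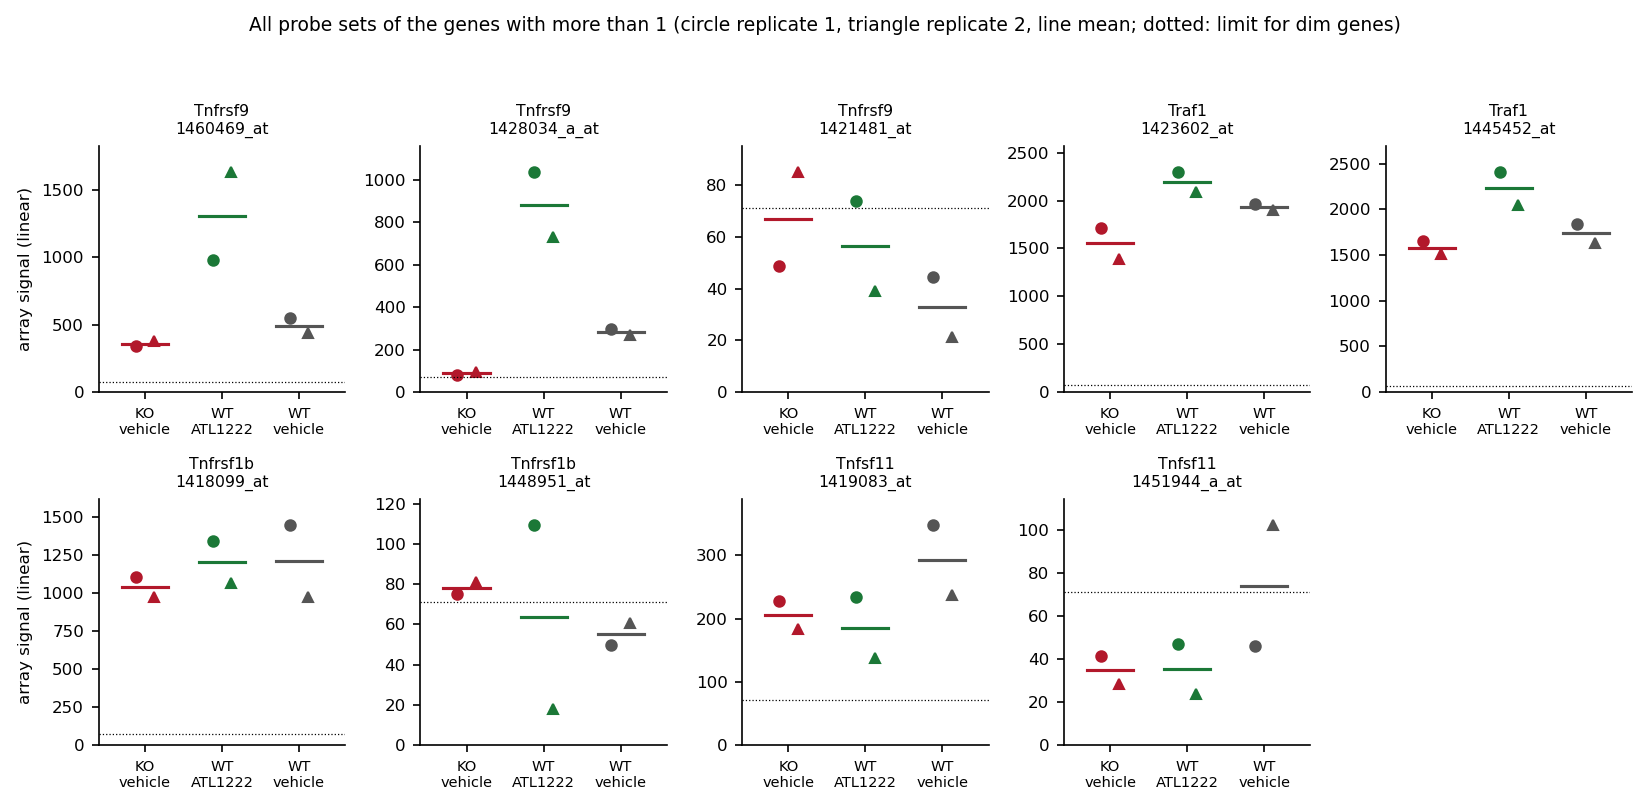
Array signal (linear scale, starting at 0) of every probe set of Tnfrsf9, Traf1, Tnfrsf1b and Tnfsf11, with KO vehicle, WT ATL1222 and WT vehicle from left to right, circles for replicate 1, triangles for replicate 2, lines for means and a dotted line at the limit for dim genes of 71.2. The 2 brighter probe sets of Tnfrsf9 and both of Traf1 place the group means in the same order, KO vehicle lowest and WT ATL1222 highest, while the dimmest probe sets of Tnfrsf9, Tnfrsf1b and Tnfsf11 reach no more than 109 on any array.

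Tnfrsf4 and Tnfrsf18 encode OX40 and GITR, co-stimulatory receptors carried by resting Tregs, and are next to each other among the protein-coding genes of chromosome 4. The 250 bases before each start are shown because the genes lie side by side and had alike patterns. Neither window held a match to any motif searched, which says only that those letters are not in it, and neither has capitals.
Tnfrsf4, chr4:156013445-156013694, plus strand: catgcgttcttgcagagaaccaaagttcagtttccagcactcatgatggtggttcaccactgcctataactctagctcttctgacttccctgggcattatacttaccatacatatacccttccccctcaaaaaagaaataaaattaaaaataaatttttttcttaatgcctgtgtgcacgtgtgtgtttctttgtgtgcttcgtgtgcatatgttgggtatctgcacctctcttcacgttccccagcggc
Tnfrsf18, chr4:156026072-156026321, plus strand: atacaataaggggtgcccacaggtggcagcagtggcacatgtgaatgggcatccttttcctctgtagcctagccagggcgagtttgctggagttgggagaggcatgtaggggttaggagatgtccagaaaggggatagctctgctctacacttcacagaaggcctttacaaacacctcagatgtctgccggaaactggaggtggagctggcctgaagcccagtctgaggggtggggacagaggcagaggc

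Tnfrsf4 had signals of 2119.9 and 1534 in KO vehicle and 4022 and 3159 in WT ATL1222, against 2530.3 and 1964 in WT vehicle. Both WT ATL1222 arrays were above all others, and the vehicle groups overlapped each other. The log2 difference was 0.67 ± 0.18 SE in WT ATL1222 (1.59-fold), with 0.67 in replicate 1 and 0.68 in replicate 2. In KO vehicle it was -0.30 ± 0.18, with -0.25 in replicate 1 and -0.35 in replicate 2. Between WT ATL1222 and KO vehicle the difference was 0.98 ± 0.18, or 1.97-fold, and the call there was lost without KO vehicle replicate 2 (log2 0.75) and without WT ATL1222 replicate 1 (log2 0.80), and in 3 of the other alternatives (no variance trend, probe sets averaged and every probe set tested separately).

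Tnfrsf18 had signals of 3623 and 2921 in KO vehicle and 7823 and 6331 in WT ATL1222, against 5124 and 3923 in WT vehicle. No group overlapped another, with KO vehicle lowest and WT ATL1222 highest. The log2 difference was 0.65 ± 0.17 in WT ATL1222 (1.57-fold), with 0.61 in replicate 1 and 0.69 in replicate 2. In KO vehicle it was -0.46 ± 0.17 (1.38-fold lower), with -0.50 in replicate 1 and -0.42 in replicate 2. WT ATL1222 stood 2.16-fold above KO vehicle (log2 1.11 ± 0.17). The call there was lost without WT ATL1222 replicate 1 (log2 0.96) and with no variance trend. Over the 6 arrays the log2 signals of Tnfrsf4 and Tnfrsf18 had Pearson r = 0.987, a description of 6 arrays that share their groups, replicate numbers and scaling. For both genes the replicate 1 array was brighter in every group, and their SE fell to 0.10 and 0.09 with the replicate block.

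Cd27 encodes the receptor of CD70, which supports T cell survival through TRAF2 and TRAF5. It had 2109.8 and 2036 in KO vehicle and 2932 and 2283 in WT ATL1222, against 2337 and 1960.3 in WT vehicle. WT vehicle overlapped both other groups, and WT ATL1222 lay above KO vehicle. The log2 difference from WT vehicle was 0.27 ± 0.16 in WT ATL1222 and -0.05 ± 0.16 in KO vehicle, and neither was called. Within replicates 1 and 2 it was 0.33 and 0.22 in WT ATL1222, and -0.15 and 0.05 in KO vehicle.

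The receptors of TNF itself were called in no comparison. Tnfrsf1a encodes TNFR1, which has a death domain and recruits TRADD, and it had 543 and 439 in KO vehicle and 544 and 675 in WT ATL1222, against 552 and 478 in WT vehicle. Tnfrsf1b encodes TNFR2, which binds TRAF2, and its brightest probe set (1418099_at) had 1106 and 970.1 in KO vehicle and 1339 and 1062 in WT ATL1222, against 1443 and 969 in WT vehicle. WT vehicle overlapped the other groups for both genes. The log2 differences from WT vehicle were 0.23 ± 0.20 in WT ATL1222 and -0.07 ± 0.20 in KO vehicle for Tnfrsf1a. For Tnfrsf1b they were 0.01 ± 0.20 in WT ATL1222 and -0.19 ± 0.20 in KO vehicle. Within replicates 1 and 2, Tnfrsf1a differed by -0.02 and 0.49 in WT ATL1222, and by -0.02 and -0.12 in KO vehicle. Tnfrsf1b differed by -0.11 and 0.13 in WT ATL1222, and by -0.38 and 0.00 in KO vehicle. For Tnfrsf1b the SD was 96.2 in KO vehicle and 196 in WT ATL1222, against 335 on a mean of 1206 in WT vehicle, whose arrays stood furthest apart. Its other probe set, 1448951_at, was dim at 17.9 to 109. There KO vehicle (75.1 and 81.1) lay above WT vehicle (49.7 and 60.6), opposite to the brightest probe set (log2 0.41 ± 0.65).

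Among the ligands, Tnfsf8 encodes the CD30 ligand, a membrane protein of activated T cells, and lies on chromosome 4. It had 226 and 258 in KO vehicle and 759.7 and 848 in WT ATL1222, against 394 and 431 in WT vehicle. The arrays of each group lay close together and no group overlapped another, KO vehicle being lowest. The log2 difference was 0.94 ± 0.19 SE in WT ATL1222 (1.91-fold), with 0.92 in replicate 1 and 0.95 in replicate 2. In KO vehicle it was -0.73 ± 0.19 (1.66-fold lower), with -0.76 in replicate 1 and -0.71 in replicate 2. WT ATL1222 stood 3.18-fold above KO vehicle (log2 1.67 ± 0.19), and Tnfsf8 was called there with any of the 6 arrays left out.

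Tnfsf11 encodes RANKL, the ligand of RANK in bone and lymphoid tissue. Its brightest probe set (1419083_at) had 228 and 184 in KO vehicle and 234 and 138 in WT ATL1222, against 348 and 238 in WT vehicle. It was the 1 of the 9 genes tested with a negative log2 difference in WT ATL1222 against WT vehicle. The linear mean of Tnfrsf1b was slightly lower too, at 1200 in WT ATL1222 against 1206 in WT vehicle. For Tnfsf11, both other groups lay below WT vehicle without overlap. The log2 difference was -0.63 ± 0.30 in WT ATL1222 and -0.46 ± 0.30 in KO vehicle, and neither was called. Within replicates 1 and 2 it was -0.54 and -0.72 in WT ATL1222, and -0.58 and -0.35 in KO vehicle. WT ATL1222 and KO vehicle overlapped (log2 -0.17 ± 0.30). Its other probe set, 1451944_a_at, was dim at 23.7 to 102. Cd40lg encodes the CD40 ligand, a help signal to B cells and dendritic cells, and its 1 probe set had 9.60 to 16.1 over the 6 arrays, below the limit for dim genes, so it was not tested.

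Traf1 (chromosome 2) encodes an adaptor that joins TRAF2 and the cIAP ubiquitin ligases at receptors such as 4-1BB. Its brightest probe set (1423602_at) had 1711 and 1394 in KO vehicle and 2294 and 2092 in WT ATL1222, against 1959 and 1903 in WT vehicle. No group overlapped another. Its other probe set (1445452_at) had 1649 and 1509 in KO vehicle and 2404 and 2051 in WT ATL1222, against 1841 and 1633 in WT vehicle. On that probe set KO vehicle overlapped WT vehicle. The log2 difference was 0.18 ± 0.15 and 0.35 ± 0.14 in WT ATL1222 by the 2 probe sets, and -0.32 ± 0.15 and -0.13 ± 0.14 in KO vehicle. On the brightest, replicates 1 and 2 gave 0.23 and 0.14 in WT ATL1222, and -0.19 and -0.44 in KO vehicle. Both probe sets gave alike differences between WT ATL1222 and KO vehicle, 0.50 ± 0.15 and 0.49 ± 0.14.

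**Figure D3:**
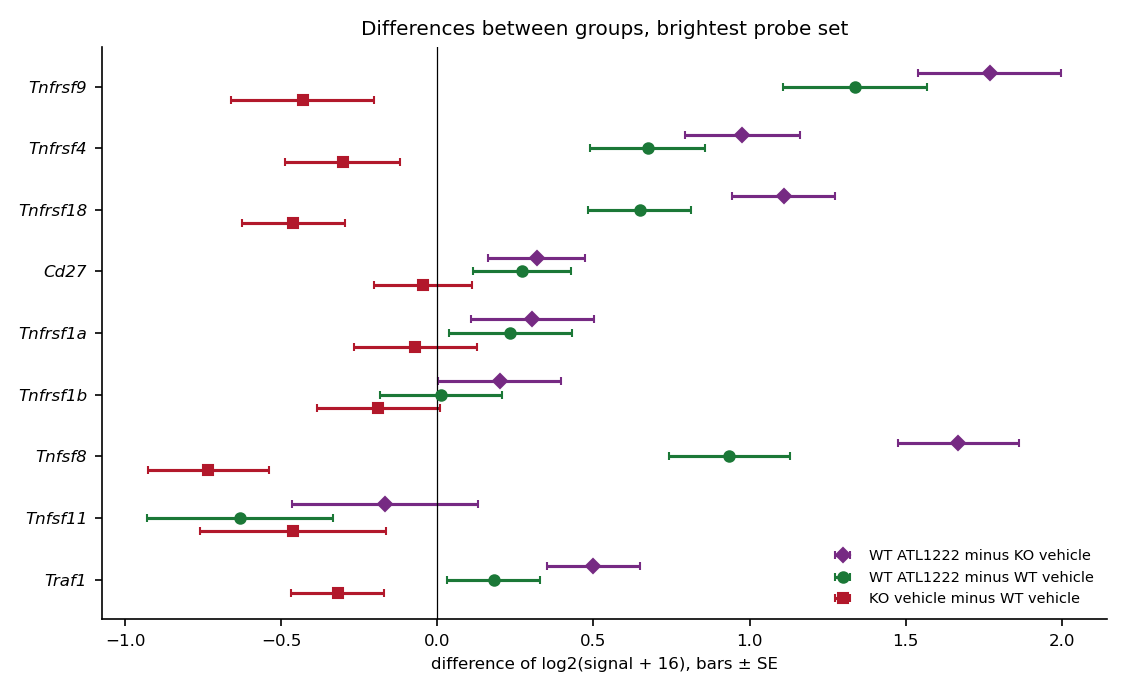
Difference of log2(signal + 16) on the x axis for the 9 genes tested, with bars of ± 1 SE, for WT ATL1222 minus KO vehicle (diamonds), WT ATL1222 minus WT vehicle (circles) and KO vehicle minus WT vehicle (squares). The points of Tnfrsf9 run from -0.43 to 1.77 and those of Tnfsf8 from -0.73 to 1.67, while those of Tnfrsf1b lie between -0.19 and 0.20.

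Set over the list, the median log2 difference of the 9 genes was -0.32 in KO vehicle against WT vehicle, 0.27 in WT ATL1222 against WT vehicle and 0.50 in WT ATL1222 against KO vehicle. Over all genes tested the medians were 0.00, -0.01 and -0.02 in the same order. Both arrays of KO vehicle lay below both of WT vehicle for 5 of the 9 genes (Tnfrsf9, Tnfrsf18, Tnfsf8, Tnfsf11 and Traf1), against 13.7% of all genes tested. With ATL1222, 5 lay above WT vehicle (Tnfrsf9, Tnfrsf4, Tnfrsf18, Tnfsf8 and Traf1), against 14.5%, and Tnfsf11 below, against 16.3%. Above KO vehicle lay 7 of the 9, against 17.4%, the exceptions being Tnfrsf1b and Tnfsf11, and 0 lay below, against 20.9%. For Tnfrsf1a, counted among the 7, the nearest arrays almost touched, at 544 in WT ATL1222 and 543 in KO vehicle. The genes were chosen with these values known, so the shares are printed for scale.

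The list of other family members, taken here to include adaptors, held 22 receptors, 15 ligands and 32 adaptors and signalling proteins. Of these, 8, 6 and 27 could be tested. In the same fit, 0 of these 41 were called higher and 0 lower in any of the 3 comparisons. Of all genes tested, at most 0.879% were called higher and at most 0.119% lower in a comparison. At limma's unadjusted p under 0.05, KO vehicle against WT vehicle had 1 higher and 1 lower gene, against 1.85% and 2.04% of all genes tested. WT ATL1222 against WT vehicle had 0 higher and 1 lower, against 2.88% and 2.15%, and WT ATL1222 against KO vehicle had 3 higher and 1 lower, against 4.76% and 3.72%. Their median log2 difference was 0.00, 0.00 and -0.03 in that order. With the replicate block 1 adaptor was called higher in WT ATL1222 than in KO vehicle, against 1.88% of all genes tested. It was Tank, which binds TRAF proteins and restrains NF-kB signalling (limma adjusted p = 0.00843, against 0.0699 without the block). Tank had 1362 and 1525 in KO vehicle and 2075 and 2381 in WT ATL1222, against 1838 and 1742 in WT vehicle, so that no group overlapped another. Its log2 difference was 0.62 ± 0.15 between WT ATL1222 and KO vehicle, 0.31 ± 0.15 between WT ATL1222 and WT vehicle, and -0.31 ± 0.15 between KO vehicle and WT vehicle.

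Of the other genes with the smallest p, none passed with or without the block. The lymphotoxin beta receptor Ltbr had 111 and 169.8 in KO vehicle and 15.9 and 97.0 in WT ATL1222, against 173 and 131 in WT vehicle (log2 -1.47 ± 0.53 in WT ATL1222 against WT vehicle, limma adjusted p = 0.719), near the limit for dim genes. The death-domain adaptor Fadd had 138 and 148 in KO vehicle and 169.7 and 229 in WT ATL1222, against 227 and 303 in WT vehicle (log2 -0.81 ± 0.28 in KO vehicle against WT vehicle, limma adjusted p = 1.00). Map3k14, the kinase NIK of the alternative NF-kB pathway, had a log2 difference of 0.51 ± 0.22 in KO vehicle and 0.44 ± 0.22 in WT ATL1222, both against WT vehicle. The cIAP ubiquitin ligase gene Birc2 lay at 0.40 ± 0.16 and Tnfaip8 at 0.50 ± 0.20 between WT ATL1222 and KO vehicle, and Traf5 at -0.39 ± 0.20. Relt had -0.56 ± 0.31 in WT ATL1222 against WT vehicle and the same value against KO vehicle. In KO vehicle against WT vehicle, Traf5 and the deubiquitinase gene Otulin both lay at 0.33 ± 0.20.

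**Figure D4:**
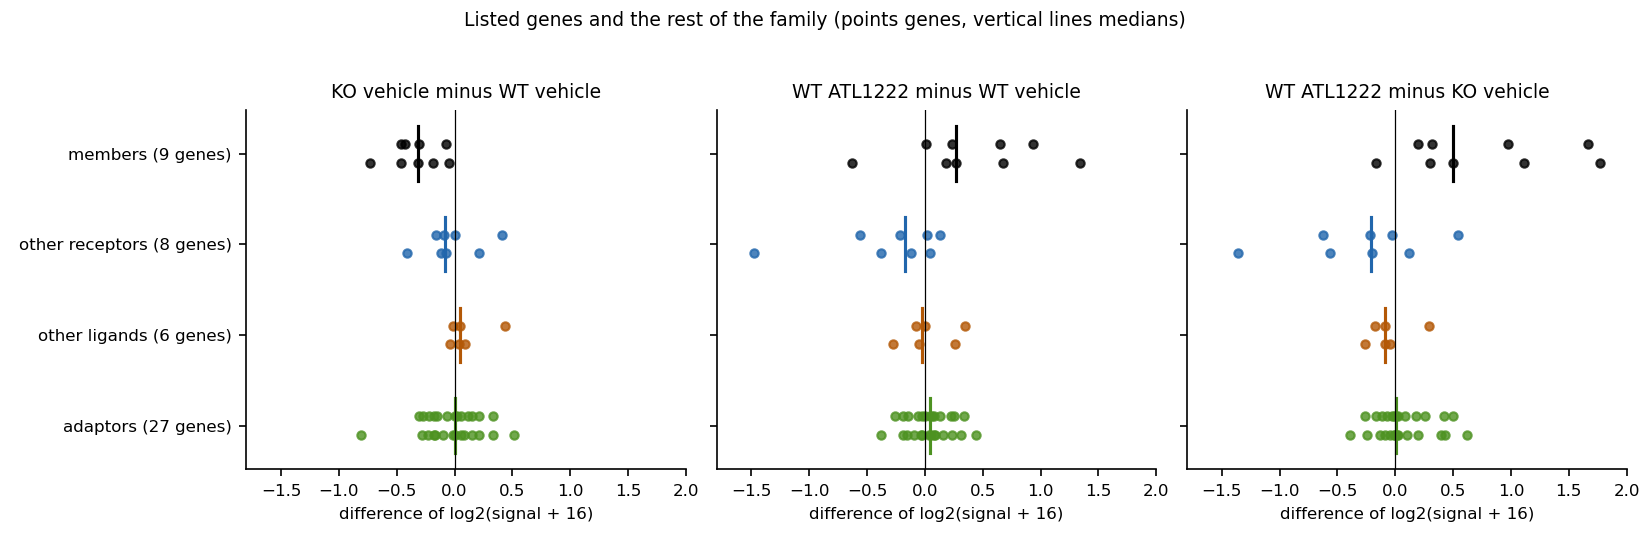
Difference of log2(signal + 16) on the x axis for the 9 listed genes tested and for the 8 other receptors, 6 other ligands and 27 adaptors tested, 1 point a gene with vertical lines at the medians, in KO vehicle minus WT vehicle, WT ATL1222 minus WT vehicle and WT ATL1222 minus KO vehicle. The listed genes have medians of -0.32, 0.27 and 0.50 in these comparisons, and the adaptors 0.01, 0.04 and 0.01.

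The binding partners of several listed genes were among the other family members. The OX40 ligand gene Tnfsf4 had signals of 77.7 to 172 and the 4-1BB ligand gene Tnfsf9 of 108 to 188 over the 6 arrays, and both were tested and neither passed. The brightest probe sets of Cd70 (ligand of CD27), Tnf, Tnfrsf8 (CD30, receptor of the CD30 ligand), Tnfrsf11a (RANK) and Cd40 all had means below the limit for dim genes. Ltb, which encodes a subunit of membrane lymphotoxin, was bright on every array at 14300.1 to 17932. Fas, a death receptor, had 571 to 844 and did not pass.

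Of the Treg list 6 of 7 genes could be tested and 1 was called, Ctla4, higher in WT ATL1222 than in KO vehicle (limma adjusted p = 0.0370). Of all genes tested 0.879% were called higher there. With the replicate block Ctla4 was called there too, and Nrp1 was called lower (log2 -0.40 ± 0.14, limma adjusted p = 0.0332 with the block and 0.369 without it). The block called 1.88% of all genes higher and 0.54% lower in that comparison. Of the CD4 T cell list all 3 were tested (Cd3e, Cd4 and Cd5) and 0 were called. The CD8 and NK list (5 of 6 genes with a probe set, 2 tested) summed to signals of 483 to 546 in KO vehicle and 369 to 417 in WT ATL1222, against 350.0 to 436 in WT vehicle. The B cell list (4 of 5, 3 tested) summed to 485 to 555 in KO vehicle and 598 to 638 in WT ATL1222, against 548 to 570.3 in WT vehicle. The myeloid list (5 of 5, 1 tested) summed to 271 to 291 in KO vehicle and 213 to 269 in WT ATL1222, against 189 to 393 in WT vehicle, and the dendritic cell list (4 of 4, 1 tested) to 152 to 239 in KO vehicle and 215 to 286 in WT ATL1222, against 176 to 286 in WT vehicle. No single marker of these lists was called in any comparison, and the highest signal of any on 1 array was 259, that of Cd79b. The CD8 and NK sums in KO vehicle and the B cell sums in WT ATL1222 lay above those in WT vehicle. Members of each list differed in direction. In KO vehicle against WT vehicle, Cd8b1 (log2 0.77 ± 0.30) and the dim Gzmb and Ncr1 had higher means. Nkg7 (log2 -0.50 ± 0.38) and the dim Cd8a had lower ones. In WT ATL1222 against WT vehicle, Cd79b (log2 0.20 ± 0.25), Ms4a1 (0.29 ± 0.29) and the dim Cd79a had higher means. Cd22 (log2 -0.39 ± 0.44) had a lower one. The part of these sums in the differences of the listed genes was not tested.

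The promoter windows of 9 of the 10 genes matched the RefSeq table, 10 windows in all, each of 300 bases from 250 before to 50 after the start, and both strands were searched. The cAMP response element TGACGTCA was in 0 of the 10, against 1.79% of 32851 windows of all genes, and the shorter TGACG within it in 0, against 20.8%. The NF-kB motif described above was in 2 (the downstream start of Tnfrsf9 shown above, and Tnfsf11), against 20.7%, and a wider form, GGG and CC with any 5 bases between them, which overlaps it, in 5, against 50.8%. The AP-1 motif TGAGTCA was in 1, at the same start of Tnfrsf9, against 5.2%. A match describes the letters of a window and says nothing on whether a factor binds there.

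By pattern over the 6 arrays, the genes most like each listed gene whose WT ATL1222 arrays lay outside the range of WT vehicle were as follows, as Pearson r of log2 signals of 6 arrays that share groups and replicate numbers. For Tnfrsf9 they were Parp14 (0.987), E130308A19Rik (0.982) and Mrtfa (0.972). For Tnfrsf4 they were Tapbpl (0.997), Tram1 (0.996) and Stat4 (0.995), and for Tnfrsf18 Sla (0.995), Hif1a (0.994) and Bhlhe40 (0.994). For Tnfsf8 they were Bcl6 (0.996), Tnpo3 (0.988) and Knl1 (0.988), for Traf1 Dnaja1 (0.992), Vdac1 (0.988) and Srprb (0.987), and for Tnfsf11 Rap1a (0.991), Asf1a (0.985) and Slc25a32 (0.981). They were picked from 10916 genes for this likeness and are given as a description.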

How the data were processed

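RNA of sorted Tregs was measured on 6 1-colour arrays. Total RNA was labelled with biotin, per the labels' protocols. GCOS was used for the signals, per the submitters' processing notes, with neither version nor algorithm stated in those notes. The deposited values are intensities on a linear scale, scaled by the authors to 1 mean of 250 over probe sets after the highest and lowest 2% were left out (read from the values), and this scaling was kept.

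From these, 64 control probe sets were left out, 34945 probe sets had 1 gene symbol, 932 had several and 9160 were unlisted. Symbols were updated through Entrez identifiers (34741 matched, GRCm38.p6). Each gene was represented by its brightest probe set, as log2(signal + 16). A single limma fit (version 3.58.1, R 4.3.3) took in all 6 arrays and let the prior variance follow the mean signal. The number of arrays limits the precision, with a median SE of 0.23. The fit was tested on simulated data. Values for probe sets other than the brightest, and for dim ones, come from a fit of all probe sets.

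The listed genes and the lists were chosen with earlier results of these data known. Named were the 10 listed genes, family genes past the threshold or among the 5 smallest p of a comparison, the 3 genes most alike in pattern to a listed gene, and markers. Family genes named in the paragraph on binding partners were picked as partners of listed genes, and Ltb and Fas after their values were seen. Alternatives were the offset, the filter, the trend, cyclic loess, the choice of probe set, the replicate block, fewer arrays and each array left out. Gene names are not given for probe sets with several symbols.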

Additional observations from a re-analysis of the deposited data

How the results depend on the processing

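Over the 15 alternatives run for each comparison, Tnfrsf9, Tnfrsf4, Tnfrsf18, Tnfsf8 and Traf1 kept the sign of all 3 log2 differences. Tnfrsf1b changed sign in at most 4 alternatives of a comparison. Tnfrsf1a and Cd27 changed sign only in KO vehicle against WT vehicle (log2 -0.07 and -0.05), in 2 and 1 alternatives. Tnfsf11 changed sign in 1, between WT ATL1222 and KO vehicle. None of these differences was called. Replicates share only a number in the labels, and their deviations correlated between groups with r from 0.147 to 0.230. With the replicate block the number of all genes called was 9 in KO vehicle against WT vehicle, 79 in WT ATL1222 against WT vehicle and 264 in WT ATL1222 against KO vehicle, in place of 3, 23 and 109. The block called 4 listed genes in the second comparison and 1 other family gene in the third. In the order of these comparisons, the numbers of all genes called were 0, 0 and 5 without the variance trend and 0, 3 and 44 with probe sets averaged. With every probe set tested separately 0 and 9 probe sets, not genes, were called in the comparisons against WT vehicle. For WT ATL1222 against WT vehicle they were 14 with no filter on dim genes, 36 with the lowest 60% left out, 35 after cyclic loess and 44 with the 4 arrays compared alone. With no filter, 70 were called against KO vehicle. Of the listed genes, WT ATL1222 against WT vehicle called 0 with no filter, without the trend, with probe sets averaged and with every probe set separate, and 2 with the lowest 60% left out or only the 4 arrays, while against KO vehicle the fit without the trend called 0. Leaving out 1 array in turn gave 3 to 7 genes in KO vehicle against WT vehicle, 5 to 39 in WT ATL1222 against WT vehicle and 42 to 133 in WT ATL1222 against KO vehicle. Without WT vehicle replicate 2 the first was 7 and without KO vehicle replicate 2 it was 5, the second 5 without WT vehicle replicate 2 or WT ATL1222 replicate 1 and 39 without either KO vehicle array, and the third 42 without WT ATL1222 replicate 1 and 61 without KO vehicle replicate 2. Of the listed genes it gave 0 to 1 in WT ATL1222 against WT vehicle and 2 to 4 in WT ATL1222 against KO vehicle, the lowest without WT ATL1222 replicate 1, where Tnfrsf9 and Tnfsf8 were called. The cause was not tested for any of these changes.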

Other observations

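Several of the listed genes differed by replicate number as well as by group. For 6 of the 9 tested (Tnfrsf4, Tnfrsf18, Tnfrsf1b, Cd27, Tnfsf11 and Traf1) replicate 1 was brighter than replicate 2 in all 3 groups, against 24.0% of all genes tested, and for Tnfsf8 it was dimmer in all 3, against 15.2%. The genes were not chosen by replicate, but they are few and this was noticed in the same arrays. At the common trimmed mean of 250, the median signal of the whole array was lower on replicate 1 in every group. Replicates 1 and 2 had medians of 84.1 and 96.3 in KO vehicle, 74.7 and 87.7 in WT ATL1222, and 76.9 and 98.2 in WT vehicle. The shares above cover tested genes of every brightness, and the part of this array-wide shift in the order of the listed genes was not tested.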
